A study of Homo sapiens with 12 samples.

Results

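HLF cells grown inside Matrigel by the Mix-Embed method were compared with HLF cells grown flat, gene by gene, in 4 of the 12 libraries of the study. HLF is a human hepatocellular carcinoma line of undifferentiated, mesenchymal character, and its genotype is labelled wild type. For HLF Mix-Embed, 10000 cells per well were mixed into Matrigel, a gelled basement membrane extract, over a layer at 4 to 6 mg/ml, with fresh medium every other day, and harvested between day 6 and day 8 (2 biological replicates). For HLF Inject-Embed, used below as a second gel culture, 2000 cells per well were injected into Matrigel and harvested over the same days (2 replicates). HLF 2D cells were flat cultures harvested on day 2 at about 90% confluency (2 replicates). The medium is labelled with 10% fetal bovine serum for all 12 libraries, gel and flat. The same cultures of the line Huh7, seeded at 20000 cells per well for Mix-Embed, were used to test where HLF responded differently. Culture in gel, days in culture, cell number and density changed together between HLF Mix-Embed and HLF 2D, so their parts in any difference cannot be told apart. Each line is 1 cell line, and the labels call the replicates biological without further detail. The p-values set a difference against the spread between replicate cultures, estimated over all 12 libraries, and speak for these cultures only. In bulk RNA, fewer cells of a kind and less RNA per cell cannot be told apart.

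A cell in a soft gel touches matrix on all sides, spreads little and pulls little on its surroundings, and in cell biology this is known to lower the tension-driven transcription factors YAP, TAZ and MRTF and their contractile target genes. Dense cell groups in gel also consume oxygen and nutrients faster than these diffuse in, which acts through the hypoxia-inducible factors. Interferons, and cytosolic nucleic acids sensed by RIG-I-like receptors and cGAS, act through a complex that holds STAT2 and IRF9 and binds interferon-stimulated response elements in the promoters of antiviral genes.

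Poly-A RNA was counted per gene, with totals of 13521290 and 15540021 counts in the HLF Mix-Embed libraries and 15556397 and 15262526 in the HLF 2D libraries. Levels are given as CPM, the counts divided by a library size that TMM scaling had adjusted, on which scale 1 count was worth 0.0594 to 0.0683 CPM in HLF Mix-Embed and 0.0619 to 0.063 CPM in HLF 2D. Protein-coding genes took 97.07% and 97.11% of the counts in HLF Mix-Embed and 97.66% in both HLF 2D libraries, and the mitochondrial ribosomal RNAs 0.597% and 0.579% in HLF Mix-Embed against 0.3% and 0.293% in HLF 2D. The labelled cell type was checked on hepatocyte genes, and HLF lacked most of them. Albumin (ALB) had 0 and 1 counts in HLF Mix-Embed and 0 and 3 in HLF 2D, and apolipoprotein APOB had 0 in all 4 libraries. HNF4A, the master regulator of hepatocyte genes, had at most 1 count per library.

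Log2 fold changes are HLF Mix-Embed over HLF 2D and are given ± a standard error derived from the test, with p-values from edgeR's quasi-likelihood test adjusted by Benjamini-Hochberg over 19342 genes. Of these genes, 5605 changed (29.0%), of which 2789 were higher in HLF Mix-Embed (14.4%) and 2816 lower (14.6%). Counts of list members that rose or fell, given below, are to be read beside these shares. Large changes were mostly upward, since 919 called genes (4.75%) were higher by at least 1 on the log2 scale and 223 (1.15%) lower by at least 1. Both HLF Mix-Embed libraries lay above both HLF 2D libraries in 5919 of the genes tested (30.6%) and below both in 5724 (29.6%). Absence of overlap between the groups therefore says little by itself about a gene. Scaling by library totals alone gave 5506 changed genes, of which 62.4% were higher, against 49.8% with TMM scaling. The 12 protein-coding genes that rose most, among those reaching 10 CPM, were OAS2, IFITM1, XAF1, TRIM22, OASL, TINAG, BST2, IFI44L, CCL5, SERPINE2, FOS and CDH16. Of these, 7 are members of the list of interferon-stimulated genes. The 12 that fell most were CNN1, TAGLN, CCN5, ANKRD1, ANKRD2, CALD1, MDGA1, SLC7A5, FGB, SHOX, IGFBP3 and PADI2, of which CNN1, TAGLN and CALD1 encode actin-binding proteins of contractile cells. For both sets of 12, absence of overlap between the groups was a condition of choice and so is no result. Most list members named below were chosen for a small adjusted p or after their values were seen. Separation of their groups is therefore no independent result either.

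**Figure D1:**
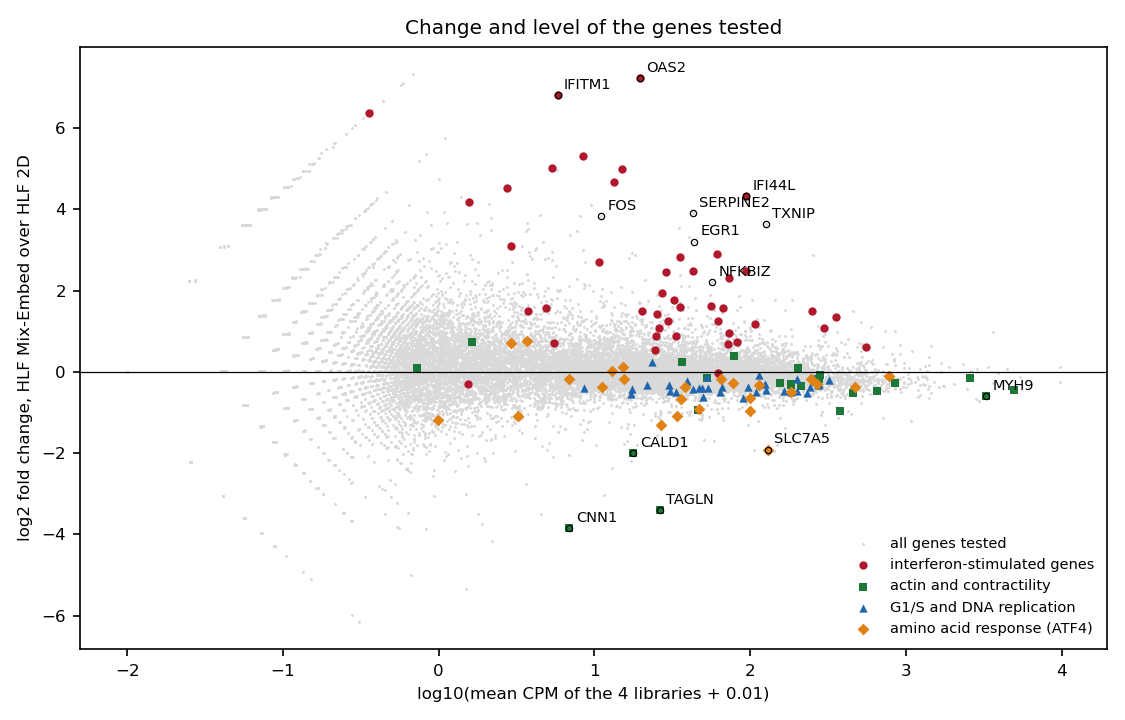
Log2 fold change of HLF Mix-Embed over HLF 2D against mean CPM over the 4 libraries (log10 axis) for the 19342 genes tested, with 4 gene lists in colour. Of the labelled genes, OAS2 at 7.23 is the highest and CNN1 at -3.84 the lowest.

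**Figure D2:**
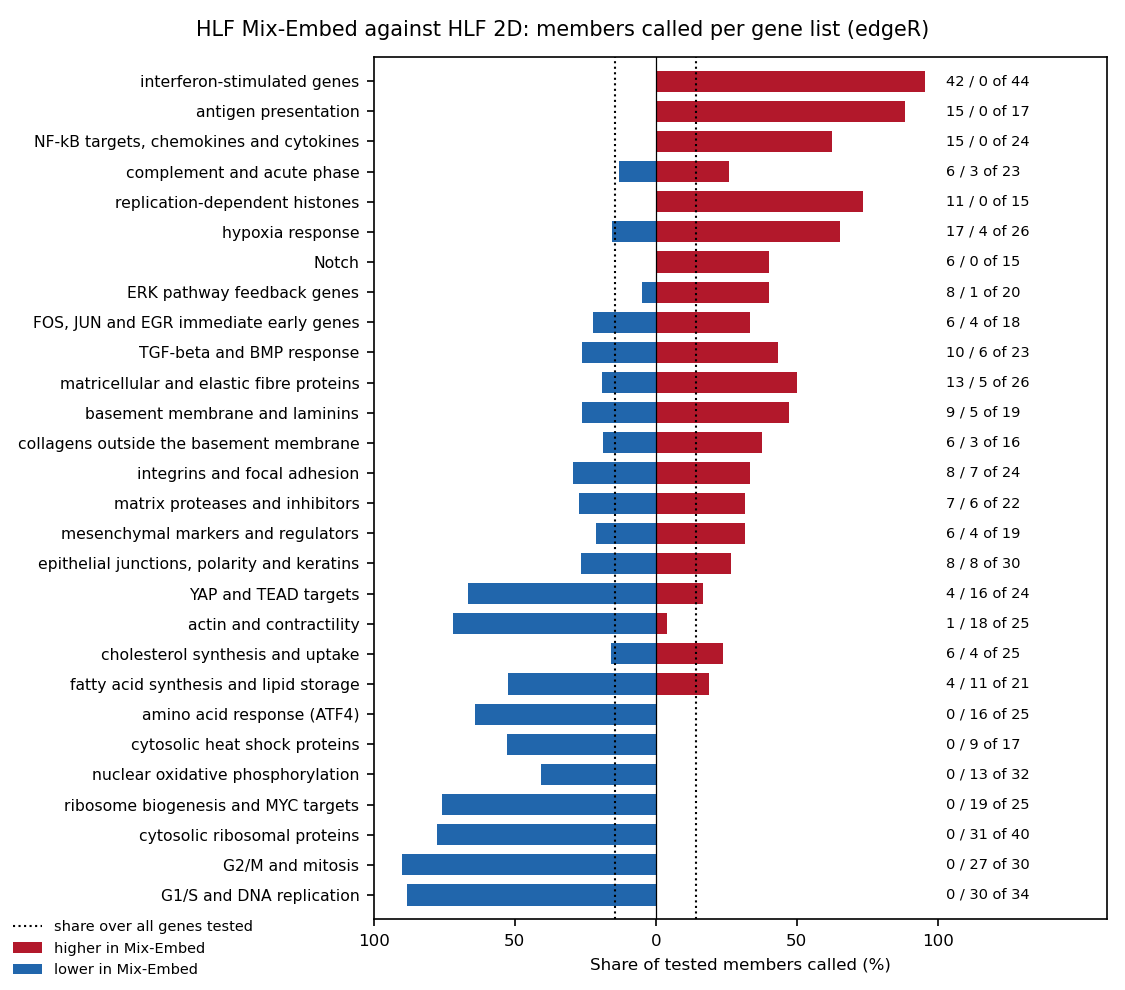
Share of tested members of each gene list that were called higher (right) or lower (left) in HLF Mix-Embed than in HLF 2D, with higher and lower counts of the number tested printed at the right. Dotted lines show the shares over all genes tested, 14.4% higher and 14.6% lower, and the interferon-stimulated genes reach 95.5% on the right.

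The interferon-stimulated genes carried the largest rises, and the DNA just before their start sites is shown first. The stretches below are from the RefSeq promoters (GRCh38.p14) of the 6 listed genes with the highest log2 fold change among those holding at least 2 matches before the start, with ISG15 added as a much-used marker of the response. Capitals mark the core of the interferon-stimulated response element, which is GAAA, any 2 bases and GAAA, or its reverse complement, TTTC, any 2 bases and TTTC. Each is written 5′ to 3′ on the strand of its gene.
BST2 (chr19:17405725-17405780, minus strand): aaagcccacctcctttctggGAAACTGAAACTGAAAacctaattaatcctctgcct
IFI44L (chr1:78620264-78620404, plus strand): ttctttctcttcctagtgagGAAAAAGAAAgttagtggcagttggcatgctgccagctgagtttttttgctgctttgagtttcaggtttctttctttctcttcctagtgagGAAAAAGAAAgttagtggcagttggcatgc
IFI27 (chr14:94110608-94110670, plus strand): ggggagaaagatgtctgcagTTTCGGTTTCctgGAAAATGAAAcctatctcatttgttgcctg
IFIT1 (chr10:89392487-89392549, plus strand): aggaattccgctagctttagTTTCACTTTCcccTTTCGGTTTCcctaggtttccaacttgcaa
IFIT3 (chr10:89327821-89327904, plus strand): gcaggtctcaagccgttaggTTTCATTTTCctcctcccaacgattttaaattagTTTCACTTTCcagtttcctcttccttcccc
IFI6 (chr1:27672256-27672368, minus strand): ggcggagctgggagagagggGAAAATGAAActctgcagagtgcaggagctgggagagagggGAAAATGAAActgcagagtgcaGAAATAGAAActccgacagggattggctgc
ISG15 (chr1:1013364-1013419, plus strand): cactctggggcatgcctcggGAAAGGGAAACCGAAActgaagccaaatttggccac
In BST2 and ISG15 a pair of matches overlaps, so that 16 capitals hold both. Searched on both strands over 250 bases before to 50 after the start, the motif stood in 22 of the 35 listed interferon-stimulated genes with a promoter in the RefSeq table (62.9%). It stood in 7 of 13 antigen presentation genes (53.8%), in 374 of 12834 promoters of tested genes (2.91%) and in 1255 of all 35116 promoters (3.57%). A match is a description of the sequence and no measurement of binding. Such elements are known in promoters of antiviral genes, as given above, and the list was chosen with earlier results of these data known.

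Of 44 listed interferon-stimulated genes, 42 were higher in HLF Mix-Embed than in HLF 2D (95.5%, against 14.4% of all genes) and none was lower, with a median log2 fold change of 1.59 against 0.004 over all genes tested. Summed over the list, the level was 4092 and 4029 CPM in HLF Mix-Embed and 1659 and 1630 CPM in HLF 2D. OAS2, an enzyme that makes 2-5A to activate RNase L (ENSG00000111335, chromosome 12, 112978395 to 113011723), stood at 41.0 and 36.6 CPM in HLF Mix-Embed and at 0.248 and 0.252 CPM in HLF 2D. It was nearly silent in flat culture, and its log2 fold change was 7.23 ± 0.27 (edgeR adjusted p = 3.65e-24). IFI44L, an interferon-induced protein of unclear biochemical role (ENSG00000137959, chromosome 1, 78619922 to 78646145), had 178 and 183 CPM in HLF Mix-Embed and 7.87 and 10.1 CPM in HLF 2D, a log2 fold change of 4.32 ± 0.11 (edgeR adjusted p = 1.64e-31). IFIT1, which binds viral RNA lacking cap methylation, had 112 and 106 CPM in HLF Mix-Embed and 14.4 and 14.6 CPM in HLF 2D. Every library of HLF Mix-Embed lay above every library of HLF 2D for these genes, which was a condition of choice for OAS2 and IFI44L.

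Members that act on virus entry and release were among those that rose. BST2 (tetherin), which holds budding virions at the cell surface, had 25.8 and 25.5 CPM in HLF Mix-Embed and 0.867 and 1.13 CPM in HLF 2D (log2 fold change 4.67 ± 0.24). IFITM3, which blocks fusion of entering viruses, stood at 369.6 and 368 CPM in HLF Mix-Embed and 134 and 126 CPM in HLF 2D. IFITM1, of the same family, had 12.1 and 10.9 CPM in HLF Mix-Embed and 0.124 and 0.0630 CPM in HLF 2D. That is 361 counts over the HLF Mix-Embed libraries and 3 over the HLF 2D libraries, a ratio of 122 with a 95% counting interval of 41.5 to 596. The IFITM genes are near-identical neighbours and IFITM1 overlaps another gene on its strand, so reads may be divided between them. XAF1, an interferon-induced partner of apoptosis regulators, had 17.3 and 15.5 CPM in HLF Mix-Embed and 0.310 and 0.504 CPM in HLF 2D.

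Signalling genes of the interferon pathway were among the list's members too. STAT2, of the complex that binds the element printed above, had 104 and 101 CPM in HLF Mix-Embed and 60.5 and 62.4 CPM in HLF 2D (0.73 ± 0.07, edgeR adjusted p = 7.72e-12). Its partner IRF9 was higher by 1.57 ± 0.24, as was the RNA sensor IFIH1 by 1.43 ± 0.13. ISG15, the ubiquitin-like modifier, stood at 102 and 99.2 CPM in HLF Mix-Embed and 34.6 and 32.8 CPM in HLF 2D. The members that did not pass the test were MX2, at 61.7 and 60.7 CPM in HLF Mix-Embed and 63.4 and 61.2 CPM in HLF 2D, and IRF7, which differed by -0.29 ± 0.39. Of 12 immune cell markers, PTPRC, CD3E, MS4A1 and FCGR3A had 0 counts in all 4 libraries. The summed level of the 3 immune markers tested was 8.54 and 7.24 CPM in HLF Mix-Embed and 3.22 and 3.72 CPM in HLF 2D, with CD14, a co-receptor for bacterial lipopolysaccharide, at 7.31 and 6.53 CPM in HLF Mix-Embed and 3.04 and 2.84 CPM in HLF 2D.

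**Figure D3:**
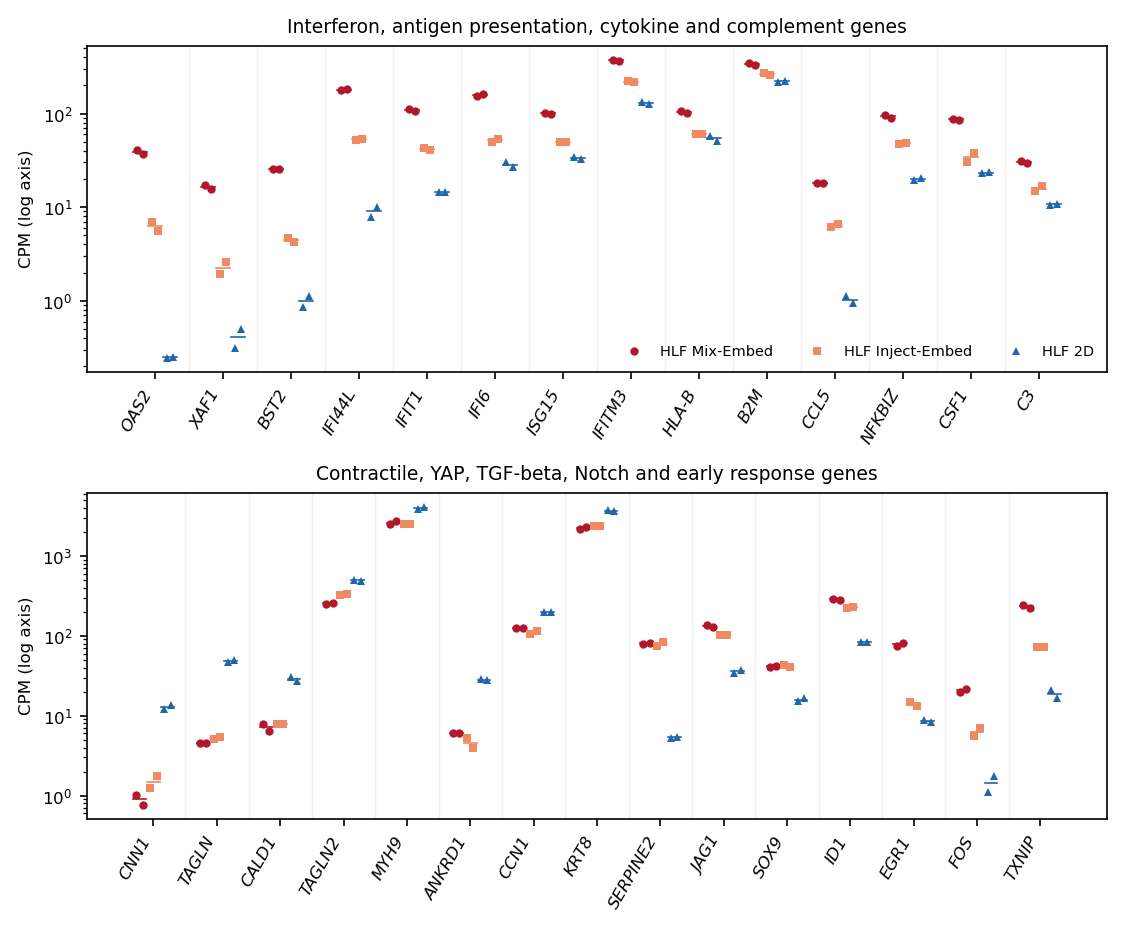
CPM of selected genes in each of the 6 HLF libraries on a log axis, with Mix-Embed at the left, Inject-Embed in the middle and 2D at the right. Both replicates are shown as points, and OAS2 lies at 41.0 and 36.6 in Mix-Embed, at 6.87 and 5.58 in Inject-Embed and at 0.248 and 0.252 in 2D.

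Antigen presentation genes, most of the MHC class I pathway and some of class II, were higher in 15 of 17 tested members and lower in none, with a median log2 fold change of 0.68. The summed level of the list was 1728 and 1719 CPM in HLF Mix-Embed and 1062 and 1060 CPM in HLF 2D. B2M, the light chain of class I molecules, had 349 and 328 CPM in HLF Mix-Embed and 217 and 223 CPM in HLF 2D (0.62 ± 0.05). Both libraries of HLF Mix-Embed exceeded both of HLF 2D. NLRC5, the class I transactivator, was higher by 0.99 ± 0.16 and the peptide transporter TAP1 by 0.55 ± 0.09. CIITA, the transactivator of class II genes, and the transporter subunit TAP2 did not pass the test. HLA genes are close paralogs, and counts may be divided among them.

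Chemokines and NF-kB target genes were higher in 15 of 24 tested members and lower in none (median 1.14, or 0.7 when 3 barely detected members were set aside). CCL5, which attracts T cells, stood at 17.9 and 18.0 CPM in HLF Mix-Embed and 1.11 and 0.945 CPM in HLF 2D, a log2 fold change of 4.11 ± 0.25 (edgeR adjusted p = 1.46e-17). NFKBIZ, a nuclear IkB protein that helps NF-kB activate a subset of its genes, had 97.4 and 90.3 CPM in HLF Mix-Embed and 19.6 and 20.7 CPM in HLF 2D (2.22 ± 0.07). CSF1, the growth factor of macrophages, had 88.1 and 84.7 CPM in HLF Mix-Embed and 22.9 and 23.6 CPM in HLF 2D (1.89 ± 0.10). All 3 were chosen for the smallest adjusted p of their list, so the distance between their groups is no separate result. The cytokine IL6 and the neutrophil chemokine CXCL8 were low and did not pass the test (edgeR adjusted p = 0.124 for IL6 and 0.104 for CXCL8). CXCL8 had 0.752 and 0.356 CPM in HLF Mix-Embed and 0 and 0.252 CPM in HLF 2D, and passed without the second HLF 2D library (edgeR adjusted p = 0.0401).

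C3 and the fibrinogen chains moved in opposite directions within the list of 23 tested complement and acute phase genes, of which 6 rose and 3 fell. C3, the central complement protein, had 30.7 and 29.6 CPM in HLF Mix-Embed and 10.5 and 10.9 CPM in HLF 2D (edgeR adjusted p = 1.83e-19), and it overlaps another gene on its strand. The fibrinogen chain FGB fell to 46.7 and 41.8 CPM in HLF Mix-Embed, against 167 and 166 CPM in HLF 2D (-1.91 ± 0.06), and FGG and FGA fell by 1.18 ± 0.08 and 0.54 ± 0.17 on the log2 scale. The groups did not overlap for C3.

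Early growth factor response genes and the feedback genes of the ERK pathway rose in part. Immediate early genes are switched on within minutes by growth factors or stress, and 6 of 18 rose and 4 fell. EGR1, a zinc finger factor, had 75.6 and 82.2 CPM in HLF Mix-Embed and 8.80 and 8.32 CPM in HLF 2D (3.20 ± 0.11, edgeR adjusted p = 4.19e-26). FOS, a subunit of AP-1, had 19.8 and 21.6 CPM in HLF Mix-Embed and 1.11 and 1.76 CPM in HLF 2D (3.84 ± 0.21). The rise was not shared by the stress-induced factor ATF3, which fell by 1.10 ± 0.11, nor by MYC, which fell by 0.37 ± 0.06. Of 20 ERK feedback genes 8 rose, among them the ERK phosphatase DUSP6 (2.03 ± 0.13), the receptor signalling inhibitors SPRY1 (2.17 ± 0.16), SPRY2 (1.06 ± 0.08) and SPRY4 (0.98 ± 0.13), and the factors ETV4 and ETV5. HBEGF, an EGF receptor ligand, fell by 0.59 ± 0.16, a call that was lost without the second library of HLF Mix-Embed (edgeR adjusted p = 0.0601) or of HLF 2D (edgeR adjusted p = 0.197).

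Of 23 TGF-beta and BMP response genes, 10 rose (43.5%, against 14.4% of all genes), 6 fell and 7 did not pass the test. ID1, a direct BMP target that blocks basic helix-loop-helix factors, stood at 289.8 and 285 CPM in HLF Mix-Embed and 84.4 and 83.0 CPM in HLF 2D (1.78 ± 0.06), and ID3 at 215 and 227 CPM in HLF Mix-Embed and 67.3 and 63.6 CPM in HLF 2D (1.76 ± 0.06). TGFBI, a secreted matrix adhesion protein, fell to 31.6 and 27.7 CPM in HLF Mix-Embed, against 69.8 and 63.9 CPM in HLF 2D (-1.18 ± 0.08, edgeR adjusted p = 1.63e-15). These 3 genes separated the groups without overlap. Among 15 tested Notch genes 6 rose, none fell and 9 did not pass the test. The ligand JAG1 had 135 and 130.3 CPM in HLF Mix-Embed and 34.4 and 37.9 CPM in HLF 2D (1.88 ± 0.07), the receptor NOTCH2 rose by 0.43 ± 0.04, the receptor-modifying LFNG by 1.06 ± 0.06, and the targets HES1 and SOX9 by 2.39 ± 0.33 and 1.39 ± 0.08.

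**Figure D4:**
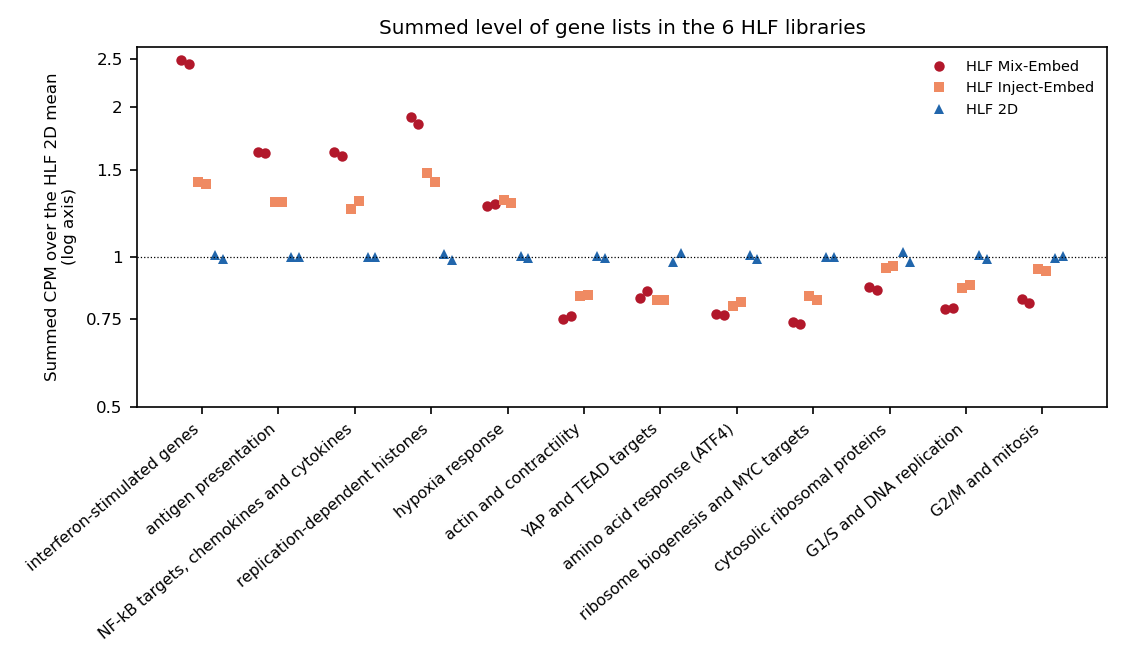
Summed CPM of selected gene lists in each HLF library relative to the mean of the HLF 2D libraries, with Mix-Embed at the left and 2D at the right. The interferon-stimulated genes sum to 4092 and 4029 CPM in Mix-Embed and 1659 and 1630 CPM in 2D.

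Genes that respond to low oxygen were mostly higher, 17 of the 26 on that list against 4 lower (median 0.57, or 0.5 with members at or near 0 counts set at their bound). P4HA1, a subunit of collagen prolyl hydroxylase, had 113 and 117 CPM in HLF Mix-Embed and 53.5 and 52.7 CPM in HLF 2D (1.11 ± 0.06, edgeR adjusted p = 9.27e-20). PDK1, which holds pyruvate out of mitochondria, was higher, the glycolytic regulator PFKFB4 rose by 1.22 ± 0.10, the mitophagy receptor BNIP3 by 0.68 ± 0.05 and VEGFA, the main angiogenic factor, by 0.64 ± 0.07. CA9, a carbonic anhydrase much used as a hypoxia marker, had 1.37 and 0.356 CPM in HLF Mix-Embed and 0.0619 and 0 CPM in HLF 2D, and its call was lost without the first HLF Mix-Embed library (edgeR adjusted p = 0.134) or the second HLF 2D library (edgeR adjusted p = 0.0566). The members that fell were the hormone-like STC2 (-0.83 ± 0.06), the collagen cross-linker LOX (-1.58 ± 0.24), NDRG1 (-0.42 ± 0.09) and PFKFB3 (-0.14). Glycolysis genes were divided, with 7 of 18 higher and 4 lower: PFKL rose by 0.56 ± 0.05 and LDHA by 0.21 ± 0.04, while PFKP fell by 0.61 ± 0.06.

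TXNIP, an arrestin-domain inhibitor of glucose uptake that rises with intracellular glucose (ENSG00000265972), showed one of the clearest differences. It stood at 246 and 222 CPM in HLF Mix-Embed and 20.8 and 16.8 CPM in HLF 2D, with no overlap, and its log2 fold change was 3.64 ± 0.09 (edgeR adjusted p = 6.71e-32). Its relative ARRDC4 rose by 1.96 ± 0.19 and ARRDC3 by 0.66 ± 0.09. The glucose transporter SLC2A1 was higher too, at 96.4 and 108 CPM in HLF Mix-Embed and 64.9 and 66.2 CPM in HLF 2D.

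Contractile and cytoskeletal genes fell as a group. Of 25 tested actin and contractility genes 18 fell and 1, PDLIM5, rose (median -0.29), and 14.6% of all genes fell. TAGLN, the smooth muscle actin-binding protein SM22 (ENSG00000149591, chromosome 11, 117199321 to 117204782), fell to 4.51 CPM in both HLF Mix-Embed libraries, against 46.7 and 49.3 CPM in HLF 2D (-3.41 ± 0.16, edgeR adjusted p = 2.5e-21). CNN1, calponin, fell to 1.02 and 0.772 CPM in HLF Mix-Embed, against 12.1 and 13.7 CPM in HLF 2D (-3.84 ± 0.32). CALD1, caldesmon, fell to 7.93 and 6.35 CPM in HLF Mix-Embed, against 30.1 and 26.8 CPM in HLF 2D (-2.00 ± 0.10). The general machinery fell by less: MYH9, the heavy chain of non-muscle myosin, was at 2513 and 2709.5 CPM in HLF Mix-Embed and 3846 and 4047 CPM in HLF 2D (-0.60 ± 0.04), and ACTB changed by -0.43 ± 0.03. The groups did not overlap for MYH9 or ACTB. ACTA2, alpha smooth muscle actin, did not pass the test (0.73 ± 0.47, edgeR adjusted p = 0.27).

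Of 24 YAP and TEAD target and pathway genes 16 fell and 4 rose (median -0.33). ANKRD1, a muscle ankyrin repeat protein and a much-used YAP target, fell to 6.15 and 6.12 CPM in HLF Mix-Embed, against 28.6 and 27.9 CPM in HLF 2D (-2.20 ± 0.17, edgeR adjusted p = 1.75e-14). CCN1, a matrix-associated signalling protein, fell to 124 and 125 CPM in HLF Mix-Embed, against 199 and 200.5 CPM in HLF 2D (-0.68 ± 0.06). Its relative CCN2, also a textbook YAP target, was higher, at 37.9 and 35.2 CPM in HLF Mix-Embed and 24.7 and 23.6 CPM in HLF 2D (0.60 ± 0.10). NT5E (CD73), which makes extracellular adenosine, rose by 1.53 ± 0.07. The mRNAs of YAP1 and of its relative WWTR1 did not pass the test, at 0.07 and 0.10 on the log2 scale, and TEAD1 fell by 0.53 ± 0.06.

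Messenger RNAs of matrix proteins changed in both directions. Of 19 basement membrane genes 9 rose and 5 fell, and laminins, the trimeric backbone of these membranes, were among both. LAMB1 had 853 and 862 CPM in HLF Mix-Embed and 558 and 568 CPM in HLF 2D (0.61 ± 0.04), LAMA2 rose by 1.60 ± 0.13, LAMA5 by 0.48 ± 0.06 and LAMB2 by 0.46 ± 0.06, while LAMB3 fell by 0.59 ± 0.17, a call lost without either HLF 2D library or the first HLF Mix-Embed library. Collagen IV chains were among those that fell: COL4A6 by 1.11 ± 0.13, and COL4A1 by 0.14 ± 0.05, a call lost when any 1 of the 4 libraries was left out (edgeR adjusted p of 0.0826 to 0.307). The 5 lower calls became 2 without the first HLF 2D or the first HLF Mix-Embed library and 3 without the second HLF 2D library.

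Among 16 other collagens 6 rose and 3 fell. COL6A2, of the beaded filament collagen VI, had 332 and 361 CPM in HLF Mix-Embed and 198 and 203 CPM in HLF 2D (0.79 ± 0.06). COL27A1 rose by 1.73 ± 0.10, while COL1A1, of the main fibrillar collagen, fell to 48.8 and 59.3 CPM in HLF Mix-Embed, against 90.5 and 91.7 CPM in HLF 2D (-0.75 ± 0.09). Matricellular and elastic fibre proteins rose in 13 of 26 and fell in 5. Tenascin-C (TNC), an anti-adhesive matrix protein of remodelling tissue, had 969 and 985 CPM in HLF Mix-Embed and 481 and 498 CPM in HLF 2D (1.00 ± 0.04, edgeR adjusted p = 1.42e-21). EFEMP2 (fibulin-4), needed for elastic fibres, rose by 2.07 ± 0.18 and fibronectin (FN1) by 0.57 ± 0.05. CCN5 fell to 3.35 and 4.93 CPM in HLF Mix-Embed, against 22.1 and 21.2 CPM in HLF 2D. COL6A2, COL1A1 and TNC did not overlap between the groups.

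Proteases and their inhibitors changed in both directions, with 7 of 22 higher and 6 lower, the lower count becoming 3 without the second HLF Mix-Embed library. SERPINE2 (protease nexin 1), an inhibitor of thrombin and urokinase, had 79.8 and 81.5 CPM in HLF Mix-Embed and 5.33 and 5.36 CPM in HLF 2D, a log2 fold change of 3.91 ± 0.11 (edgeR adjusted p = 4.62e-29). The collagenase MMP1 rose by 0.93 ± 0.08, urokinase (PLAU) by 0.45 ± 0.05 and the metalloprotease inhibitor TIMP1 by 0.73 ± 0.08. All the genes named here rose, but the summed level of the list fell. It was 1971 and 1907 CPM in HLF Mix-Embed and 2597 and 2548 CPM in HLF 2D.

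Integrins and focal adhesion genes were evenly divided, with 8 of 24 higher and 7 lower. The receptors rose and the adaptors fell in the genes named: ITGB8, a receptor that activates latent TGF-beta, had 12.7 and 15.5 CPM in HLF Mix-Embed and 1.05 and 1.51 CPM in HLF 2D (3.46 ± 0.23, edgeR adjusted p = 1.96e-16). The collagen receptors ITGA1 and ITGA2 rose by 1.07 ± 0.10 and 0.94 ± 0.14, and ITGAV by 0.45 ± 0.05. The adhesion plaque proteins vinculin (VCL) and zyxin (ZYX) fell by 0.37 ± 0.04 and 0.59 ± 0.07. ITGA1 shares its strand with the overlapping gene PELO.

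Markers of epithelial and mesenchymal identity changed in both directions. Of 30 epithelial genes 8 rose and 8 fell, and the higher count became 3 without the second HLF Mix-Embed library and 4 without either HLF 2D library. Of the keratins of simple epithelia KRT8 fell to 2199 and 2291 CPM in HLF Mix-Embed, against 3713 and 3612 CPM in HLF 2D (-0.71 ± 0.04, edgeR adjusted p = 8.03e-20), and KRT18 to 965 and 919 CPM in HLF Mix-Embed, against 1492 and 1416 CPM in HLF 2D (-0.63 ± 0.04). KRT19 was barely detected, at 0.137 and 0.416 CPM in HLF Mix-Embed and 0 in both HLF 2D libraries, and was called higher, a call that was lost without either HLF 2D library or the second HLF Mix-Embed library. The tight junction pore protein CLDN2 rose to 15.8 and 14.1 CPM in HLF Mix-Embed, against 2.04 and 1.70 CPM in HLF 2D (2.99 ± 0.21). Groups did not overlap for KRT8, KRT18 or CLDN2. CDH16, a cadherin of kidney tubules, and TINAG, a basement membrane protein known from kidney tubules, rose by 3.83 ± 0.26 and 4.98 ± 0.40. E-cadherin (CDH1) was low in both cultures, at 2.66 and 1.96 CPM in HLF Mix-Embed and 3.04 and 3.59 CPM in HLF 2D, and missed the threshold (edgeR adjusted p = 0.061), but passed it without the first HLF Mix-Embed library (edgeR adjusted p = 0.0454).

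Of 19 mesenchymal genes 6 rose and 4 fell, the lower count becoming 2 without the first HLF 2D or the second HLF Mix-Embed library. CD44, a hyaluronan receptor, had 628 and 603 CPM in HLF Mix-Embed and 374 and 379 CPM in HLF 2D (0.71 ± 0.05, edgeR adjusted p = 1.12e-16). N-cadherin (CDH2) differed by 0.16 ± 0.05, a call lost without the first HLF 2D or the first HLF Mix-Embed library. Vimentin (VIM) differed by -0.18 ± 0.05, a call lost without the first HLF 2D library (edgeR adjusted p = 0.083) or the second HLF Mix-Embed library (edgeR adjusted p = 0.201).

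Genes of cell proliferation fell by modest amounts and broadly. Of 34 G1/S and replication genes 30 fell and none rose (median -0.40), and of 30 mitotic genes 27 fell and none rose (median -0.33). MCM6, a subunit of the replicative helicase, stood at 149 and 155 CPM in HLF Mix-Embed and 219 and 211 CPM in HLF 2D (-0.50 ± 0.05), and the origin-licensing factor CDC6 fell by 0.65 ± 0.06. AURKB, the kinase of the chromosomal passenger complex, had 71.7 and 75.4 CPM in HLF Mix-Embed and 112 CPM in both HLF 2D libraries (-0.60 ± 0.06, edgeR adjusted p = 1.85e-10). MKI67, the Ki-67 proliferation antigen, fell to 793 and 824 CPM in HLF Mix-Embed, against 935 and 1000.2 CPM in HLF 2D (-0.26 ± 0.04). The groups did not overlap in these genes, and the steps were far smaller than those of the interferon-stimulated genes. With library totals alone, 1 of the 34 replication genes counted as higher and 26 as lower.

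Polyadenylated transcripts of replication-dependent histones went the other way, with 11 of 15 higher and none lower (median 1.32). H2BC21 had 50.1 and 45.3 CPM in HLF Mix-Embed and 8.42 and 8.51 CPM in HLF 2D (2.49 ± 0.14, edgeR adjusted p = 5.72e-19), and H2AC6 rose by 1.20 ± 0.08. Most histone mRNA has no poly-A tail and the genes are near-identical copies, so these values cover a small, uncertainly divided share of histone mRNA. CDKN1A (p21), an inhibitor of cyclin-dependent kinases, had 28.1 and 29.4 CPM in HLF Mix-Embed and 12.8 and 14.1 CPM in HLF 2D (1.10 ± 0.13). Among 20 p53 target genes 6 rose and 2 fell, the higher count becoming 3 without the second HLF Mix-Embed library and the lower count 1 without that library, the first HLF Mix-Embed library or the second HLF 2D library. TP53INP1, a p53-induced stress protein, rose by 1.35 ± 0.13.

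Genes of ribosome production fell as well. Of 25 ribosome biogenesis genes 19 fell and none rose (median -0.34), and of 40 cytosolic ribosomal proteins 31 fell and none rose (median -0.20), which summed to 21420 and 21140 CPM in HLF Mix-Embed and 25230 and 24020 CPM in HLF 2D. NPM1, a nucleolar chaperone, fell to 1118 and 1069 CPM in HLF Mix-Embed, against 1725 and 1689 CPM in HLF 2D (-0.64 ± 0.04, edgeR adjusted p = 1.93e-18). RPS3, a protein of the small subunit, differed by -0.36 ± 0.04. Without the first HLF 2D library 1 ribosomal protein gene counted as higher.

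Amino acid uptake and serine synthesis, which the factor ATF4 controls, fell in 16 of 25 genes and rose in none (median -0.37). SLC7A5 (LAT1), the carrier of large neutral amino acids (ENSG00000103257, chromosome 16, 87830023 to 87869488), fell to 52.3 and 56.3 CPM in HLF Mix-Embed, against 199.9 and 210.2 CPM in HLF 2D (-1.91 ± 0.06, edgeR adjusted p = 3.69e-28). The cystine carrier SLC7A11 fell by 1.31 ± 0.09, the serine synthesis enzymes PSAT1 and PHGDH by 0.95 ± 0.06 and 0.49 ± 0.05, and the mitochondrial one-carbon enzymes SHMT2 and MTHFD2 by 0.64 ± 0.06 and 0.91 ± 0.09. For SLC7A5, absence of overlap between the groups was a condition of choice. The mRNA of ATF4 itself differed by -0.30 ± 0.05. Without the first HLF Mix-Embed library, 1 member counted as higher.

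Lipid genes were divided by pathway. Of 21 fatty acid synthesis and storage genes 11 fell (52.4%) and 4 rose (19%). Fatty acid synthase (FASN) fell to 1156 and 1207 CPM in HLF Mix-Embed, against 1656 and 1748 CPM in HLF 2D (-0.53 ± 0.04, edgeR adjusted p = 8.48e-15), and the desaturase SCD fell by 0.33 ± 0.03. PLIN2, which coats lipid droplets, was higher, at 74.1 and 67.1 CPM in HLF Mix-Embed and 42.6 and 44.3 CPM in HLF 2D. Of 25 cholesterol genes 6 rose (24%) and 4 fell (16%), with HMGCS1 at 82.9 and 92.7 CPM in HLF Mix-Embed and 69.6 and 74.7 CPM in HLF 2D (0.29 ± 0.06). The 6 became 3 without the second HLF 2D library and the 4 became 2 without the first HLF Mix-Embed library. The beta-oxidation enzyme ACADVL rose by 0.52 ± 0.05 among 19 fatty acid oxidation genes, of which 5 rose (26.3%) and 1 fell (5.26%). The fallen gene, CPT1A (-0.18 ± 0.06), lost its call when any 1 of the 4 libraries was left out.

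Mitochondrial genes of the organelle and of the nucleus were listed apart. Of 13 messenger RNAs of the mitochondrial genome 9 rose and 2 fell (median 0.12), and of 32 nuclear oxidative phosphorylation genes none rose and 13 fell (median -0.15). MT-ND1, a subunit of complex I, had 1735 and 1809 CPM in HLF Mix-Embed and 1153 and 1143 CPM in HLF 2D (0.63 ± 0.04, edgeR adjusted p = 2.61e-18). ATP5F1B, the catalytic subunit of ATP synthase, had 693 and 686 CPM in HLF Mix-Embed and 855 and 854 CPM in HLF 2D (-0.31 ± 0.04). The share of mitochondrial ribosomal RNA given above was also higher in HLF Mix-Embed, and its part in these differences was not tested. The 9 higher calls became 5 without the second HLF 2D library, the 2 lower calls became 1 without either HLF 2D library or the first HLF Mix-Embed library, and with library totals alone 10 rose and none fell.

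Among protein folding genes, 9 of 17 on the list of heat shock proteins fell and none rose, with HSPD1, the mitochondrial chaperonin, changing by -0.50 ± 0.04 and HSP90AB1 by -0.41 ± 0.03. Of 22 endoplasmic reticulum chaperone and unfolded protein response genes 6 fell, 2 rose and 14 did not pass the test, the 2 becoming 1 without the second HLF Mix-Embed or the second HLF 2D library. Of 22 NRF2 target genes, which act mostly in redox defence, 8 fell and 4 rose (18.2%, against 14.4% of all genes), the 4 becoming 2 without the second HLF Mix-Embed library. Thioredoxin reductase (TXNRD1) fell to 259.8 and 245 CPM in HLF Mix-Embed, against 456 and 457 CPM in HLF 2D (-0.86 ± 0.05, edgeR adjusted p = 4.28e-18), and the heme-degrading HMOX1 fell by 0.92 ± 0.12. Insulin-like growth factor binding proteins moved in both directions: IGFBP3 fell to 68.9 and 64.7 CPM in HLF Mix-Embed, against 229 and 236 CPM in HLF 2D (-1.80 ± 0.07), and IGFBP7 rose to 837 and 783 CPM in HLF Mix-Embed, against 388 and 370.1 CPM in HLF 2D (1.10 ± 0.05).

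The direct test of HLF Mix-Embed against HLF Inject-Embed asked which of these features belonged to one gel culture more than the other, with 10000 cells seeded per well in HLF Mix-Embed and 2000 in HLF Inject-Embed. It called 1600 genes (8.27%), of which 911 were higher in HLF Mix-Embed (4.71%) and 689 lower (3.56%). With 1 library left out the count was 811 and 766 without the first and second HLF Inject-Embed library, and 1046 and 795 without the first and second HLF Mix-Embed library. Interferon-stimulated genes led it: 40 of 44 were higher in HLF Mix-Embed and none lower, with a median log2 fold change of 0.90. OAS2 stood at 41.0 and 36.6 CPM in HLF Mix-Embed and 6.87 and 5.58 CPM in HLF Inject-Embed (2.64 ± 0.16, edgeR adjusted p = 6.57e-16), and IFITM1 and XAF1 were higher by 3.53 ± 0.32 and 2.85 ± 0.25. For OAS2 the HLF Inject-Embed libraries lay between those of the other groups. Against the same HLF 2D libraries, HLF Inject-Embed had 32 of the 44 genes higher and none lower (median 0.75), where 9.09% of all genes were higher and 8.86% lower.

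EGR1 and TXNIP were likewise higher in HLF Mix-Embed than in HLF Inject-Embed. EGR1 had 75.6 and 82.2 CPM in HLF Mix-Embed and 14.9 and 13.4 CPM in HLF Inject-Embed (2.48 ± 0.10, edgeR adjusted p = 8.81e-22), and TXNIP had 246 and 222 CPM in HLF Mix-Embed and 72.6 and 72.9 CPM in HLF Inject-Embed (1.68 ± 0.07). LAMA5 differed between the gel cultures more than from 2D, at 452 and 517 CPM in HLF Mix-Embed and 265 and 264 CPM in HLF Inject-Embed (0.88 ± 0.06). Cholesterol genes were lower in HLF Mix-Embed in 18 of 25 and higher in none (median -0.36), with HMGCS1 at 82.9 and 92.7 CPM in HLF Mix-Embed and 134 and 129.8 CPM in HLF Inject-Embed (-0.58 ± 0.05). Of 30 mitotic genes 21 were lower and none higher.

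Several genes far from their HLF 2D level were not called different between the gel cultures. SERPINE2 had 79.8 and 81.5 CPM in HLF Mix-Embed and 73.7 and 83.7 CPM in HLF Inject-Embed, a difference of 0.04 ± 0.08. TAGLN (-0.23 ± 0.20), ANKRD1 (0.43 ± 0.20), SOX9 (-0.02 ± 0.07) and KRT8 (-0.07 ± 0.04) did not pass the test either. The 26 hypoxia genes were divided, with 4 higher in HLF Mix-Embed, such as P4HA1 (0.23 ± 0.06), and 4 lower, such as STC2 (-0.39 ± 0.06) and LOX (-1.29 ± 0.26). The genes with the lowest values in HLF Mix-Embed relative to HLF Inject-Embed included SHISA2, an endoplasmic reticulum protein that restrains Wnt and FGF receptors (-0.85 ± 0.06), the clock factor NPAS2 (-0.85 ± 0.15) and the arginine deiminase PADI3 (-0.78 ± 0.11). SSX2, a cancer-testis antigen with near-identical paralogs, differed by -1.97 ± 0.20, and the value of ENSG00000275895 rested on 45.2 CPM in the second HLF Inject-Embed library against 7.85 CPM in the first.

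Whether HLF responded to Mix-Embed as Huh7 did was tested as a difference of differences. For Mix-Embed, Huh7 was seeded at 20000 cells per well and HLF at 10000, so line and seeding cannot be told apart here. It called 3944 genes (20.4%), 1976 with a higher value in HLF (10.2%) and 1968 with a lower one (10.2%), where Huh7 Mix-Embed against Huh7 2D alone called 4203 (21.7%). For the interferon-stimulated genes 32 of 44 differences were called with HLF higher and 1, MX2, with HLF lower. The median log2 fold change of the list was 1.59 in HLF and -0.07 in Huh7, where 6 members rose (11.2% of all genes) and 5 fell (10.6%). IFI6 changed by 2.48 ± 0.09 in HLF and by -0.46 in Huh7, a difference of 2.93 ± 0.30, and IFITM3, higher in HLF Mix-Embed, changed by -1.43 in Huh7, a difference of 2.94 ± 0.09. Several members were at or near 0 counts in Huh7, OAS2 and XAF1 with none, so for these the model gave no informative difference.

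The response of the growth machinery also differed between the lines, with the same limit on seeding. Cytosolic ribosomal proteins had 36 of 40 differences with HLF lower and none higher, since in Huh7 27 of the 40 rose with Mix-Embed culture. For G1/S genes 29 of 34 differences were called with HLF lower and none higher. TXNIP rose in both lines, by 3.64 ± 0.09 in HLF and 2.73 in Huh7, with a difference of 0.91 ± 0.18 (edgeR adjusted p = 0.0001). Of the 26 hypoxia genes 13 had a called difference, 7 with HLF higher, such as P4HA1 (0.79 ± 0.08) and KDM3A (0.52 ± 0.11), and 6 with HLF lower, such as STC2 (-1.16 ± 0.08). BNIP3 rose in both lines, with a difference of -0.17 ± 0.07 that did not pass the test. The change in HLF exceeded that in Huh7 for JAG1 (difference 2.26 ± 0.09) and ITGB8 (3.28 ± 0.31). The metallothioneins, zinc-binding proteins, showed the reverse pattern: MT2A was at 240.0 and 236 CPM in HLF Mix-Embed and 246 and 229.7 CPM in HLF 2D, while in Huh7 it averaged 56.3 CPM in Mix-Embed and 0.838 CPM in 2D.

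**Figure D5:**
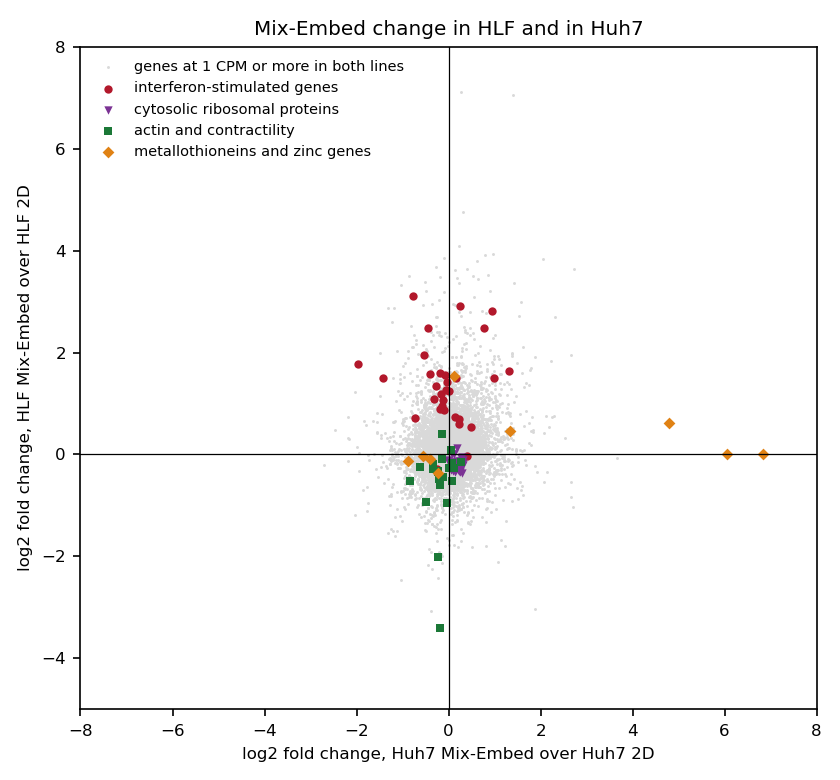
Log2 fold change of Mix-Embed over 2D in HLF (vertical) against that in Huh7 (horizontal), for genes at 1 CPM or more in both lines, with 4 gene lists in colour. Interferon-stimulated genes spread upward along the HLF axis, and metallothioneins, such as MT2A at 0.00 in HLF and 6.05 in Huh7, spread along the Huh7 axis.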

How the data were processed

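Gene expression was measured by poly-A RNA-seq in 12 libraries of HLF and Huh7 cells, 2 biological replicates per culture. Per the submitters' processing notes, the authors used FastQC, Trimmomatic, STAR 2.7.9a and featureCounts with GRCh38/hg38. For the strand setting and the gene annotation, the notes used here give nothing, so overlapping genes and near-identical copies are uncertain. The authors deposited raw read counts per gene, which were the basis of all main tests. They also deposited FPKM values, which equalled count over gene length and library total within a relative difference of 1.5e-08 for all 167453 values at 20 counts or more.

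Symbols were found for 58207 of 58735 gene identifiers (99.1%), and 12 names that a spreadsheet had turned into dates were restored. The main test was edgeR 4.0.16 (R 4.3.3), a quasi-likelihood fit of 6 group means to all 12 libraries with TMM scaling. Genes with too few counts were removed (edgeR's filter, minimum count 10), leaving 19342. Calls required a Benjamini-Hochberg adjusted p under 0.05. The biological coefficient of variation was 4.6%, with 6 residual degrees of freedom. The spread of each gene was also drawn toward that of all genes, with a median of 36.3 prior degrees of freedom. Standard errors are the absolute log2 fold change over the square root of F. Total counts were 12325877 to 16041906 per library, and intervals cover counting error only. The fit was tested on simulated data.

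The genes and 50 lists were chosen with earlier results of these data known. The text names the 12 highest and 12 lowest protein-coding genes (adjusted p under 0.05, 10 CPM in the higher group, replicates not overlapping) and 3 lncRNAs at each end. From each list it takes the 4 genes (or fewer) with the strongest adjusted p and at most 2 against the majority, then fixed markers and 5 genes at each end of the other contrasts. Other genes named, such as STAT2, IRF9, IFIH1, NLRC5, TAP1, TAP2, HES1, ETV4, ETV5, SPRY4, FGA, PDK1, NDRG1, PFKFB3, ACTB, ACTA2, YAP1, WWTR1, PHGDH, MTHFD2, ATF4, MX2, IRF7 and CIITA, were chosen after their values were seen. A few genes that the rule picks are not reported here. Alternatives were RLE scaling, library totals alone, no count filter, DESeq2 1.42.0, a replicate block, fewer groups in the fit, limma 3.58.1 on log2(FPKM + 1) or log2(FPKM + 0.1), and leaving out each replicate.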

Additional observations from a re-analysis of the deposited data

Results flagged for a closer look

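The change from 2D to Mix-Embed differed between HLF and Huh7, by a test of the difference itself, for 3944 genes. Among protein-coding genes the highest fitted differences were those of SPP1 (osteopontin, 6.26 on the log2 scale), IFITM1 (6.11), TRIM22 (5.85), OASL (5.73) and ANXA13 (5.66). For the first 4 of these the Huh7 side rests on very few counts, so the fitted values and their order are uncertain. In Huh7, SPP1 had 0 counts in Mix-Embed and 9 in 2D, IFITM1 12 in Mix-Embed and 8 in 2D, TRIM22 4 in Mix-Embed and 8 in 2D, and OASL 1 in Mix-Embed and 2 in 2D. SPP1 had 48.2 and 45.2 CPM in HLF Mix-Embed and 23.0 and 21.5 CPM in HLF 2D, and in Huh7 it averaged 0 CPM in Mix-Embed and 0.302 CPM in 2D. ANXA13 was listed at 0 in both HLF 2D libraries and had 1.37 and 0.891 CPM in HLF Mix-Embed, at least 11.9-fold higher when the HLF 2D group is put at its limit of 3 counts in all. In the opposite direction stood the metallothioneins MT1E (-6.81) and MT2A (-6.05), followed by SLC13A5 (-5.17), PDE6B (-5.07) and UPRT (-4.94). MT1E had 58.3 and 54.2 CPM in HLF Mix-Embed and 59.8 and 51.3 CPM in HLF 2D, while in Huh7 it averaged 27.6 CPM in Mix-Embed and 0.236 CPM in 2D. SLC13A5 had 0 CPM in both HLF Mix-Embed libraries and 0.248 and 0.315 CPM in HLF 2D, 9 counts in all. PDE6B and UPRT were at 0 in Huh7 2D and averaged 0.334 and 0.260 CPM in Huh7 Mix-Embed, so their fitted differences rest on very few counts.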

How the results depend on the processing

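The count of called genes between HLF Mix-Embed and HLF 2D lay within 1.5 times of 5605 under every alternative run, and no call changed direction. It was 4526 with DESeq2 and 6072 when only HLF libraries were fitted. The count of lower genes, 2816, became 1871 with limma on log2(FPKM + 1) and 1681 with limma on log2(FPKM + 0.1), a scale without TMM; the cause was not tested. Leaving out 1 of the 4 libraries gave 4098 to 4394 called genes, 2034 to 2333 higher and 1979 to 2064 lower. For HLF Mix-Embed against HLF Inject-Embed it gave 766 (without the second Inject-Embed library) to 1046 (without the first Mix-Embed library), where the full data gave 1600, with 498 to 668 higher and 258 to 378 lower. Without the first Inject-Embed library it gave 811, and without the second Mix-Embed library 795. For the difference between lines it gave 3073 to 3765, with 1543 to 1840 higher and 1466 to 1925 lower. Same-numbered HLF Mix-Embed and HLF 2D libraries did not deviate together (r = 0.04 over 10316 genes), so the numbers were not read as pairs. With a replicate block, 5566 genes were called between HLF Mix-Embed and HLF 2D, 1595 between the gel cultures and 3942 between lines. Of 282 genes named by rule, 226 kept their call under each of the 13 alternatives that gave them a value, since the fits of fewer groups tested 269 and 272 of them. With 2 cultures a group, 1 count was worth 0.0594 CPM or more in HLF Mix-Embed, which limits low genes.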

Other observations

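HLF expressed little of the hepatocyte programme in either culture, but a few secreted liver proteins, at low levels, were higher in HLF Mix-Embed. Alpha-fetoprotein (AFP), the fetal albumin homologue, had 142 and 119 counts in HLF Mix-Embed and 14 and 4 in HLF 2D (log2 fold change 3.86 ± 0.21, edgeR adjusted p = 1.31e-19). AMBP, the precursor of alpha-1-microglobulin, had 123 and 164 counts in HLF Mix-Embed and 36 and 22 in HLF 2D, and the protease inhibitor SERPINA1 had 56 and 84 in HLF Mix-Embed and 20 and 13 in HLF 2D. Of 22 tested secreted hepatocyte proteins 5 rose and none fell. Osteopontin (SPP1), a matrix protein listed with bile duct markers, rose by 1.07 ± 0.12, and the chloride channel CFTR of the same list fell to 7.86 and 8.61 CPM in HLF Mix-Embed, against 21.1 and 21.4 CPM in HLF 2D.

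Among surface markers used for liver cancer stem cells, CD24 rose by 0.67 ± 0.04 and ALCAM by 0.38 ± 0.06, while the aldehyde dehydrogenase ALDH1A1 fell to 256 and 232 CPM in HLF Mix-Embed, against 385 and 364 CPM in HLF 2D. The transferrin receptor TFRC fell by 0.76 ± 0.05 and the iron exporter SLC40A1 rose by 1.68 ± 0.31. The lysosomal hydrolases CTSA and CTSD rose by 0.44 ± 0.05 and 0.45 ± 0.07. The Wnt co-receptor partner LGR4 had 559.6 and 523 CPM in HLF Mix-Embed and 305 and 307 CPM in HLF 2D.

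Of 1320 lincRNAs tested 101 were higher in HLF Mix-Embed and 46 lower, and of 14491 protein-coding genes 2473 were higher and 2631 lower. MIR210HG, the host transcript of a hypoxia-induced microRNA, had 13.2 and 12.3 CPM in HLF Mix-Embed and 2.66 and 2.52 CPM in HLF 2D (2.29 ± 0.20). LINC01139 rose by 1.62 ± 0.13 and PURPL by 1.28 ± 0.22, and DLEU2 fell by 1.47 ± 0.19.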
